A study of Mus musculus with 24 samples.

Results

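The genes described here encode the soluble proteins, peptide precursors and processing enzymes of the chromaffin granule, the dense-core vesicle in which the adrenal medulla stores adrenaline and noradrenaline. Members were all probe sets whose symbol in the platform annotation was Chga, Chgb, Scg2, Scg3, Scg5, Npy, Penk, Pcsk1, Pcsk2 or Cpe. This gave 10 probe sets of 45101 on the array, for 9 of the 10 genes (18193 genes were named on the array), since no probe set was annotated to Pcsk2, which was not analysed here. The series holds whole adrenal glands of male wild-type C57B/6J mice aged 3 months, entrained for 2 weeks to 12 h of light and 12 h of darkness and killed in constant darkness at 12 time points, 38 to 82 h after lights off and 4 h apart, with 2 arrays each. These times fold into 6 projected circadian times (CT; hours after lights off minus 12, modulo 24), at which CT2 to CT10 lie in the projected day and CT14 to CT22 in the projected night. No other genotype or treatment was used, and whether each array stands for its own animal is not stated in the labels. The p-values below therefore cover the scatter among these samples alone, which could be technical.

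Chromogranins and secretogranins are acidic proteins that aggregate with calcium in the trans-Golgi network, where they take part in forming the granule core, and they are co-released with catecholamines when the splanchnic nerve fires. Prohormone convertases and carboxypeptidase E cut them and the neuropeptide precursors into active peptides inside the maturing granule. In the adrenal medulla these genes are classical products of chromaffin cells, and cortical cells, which make up most of the gland, have no such granules. In whole glands, fewer chromaffin cells and less RNA per chromaffin cell cannot be told apart.

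Some upstream sequences are shown because several of these genes carry, close to the start of transcription, the palindromic cyclic AMP response element (CRE), the site bound by CREB-family factors that act downstream of nerve-driven cyclic AMP signals. Sequences are RefSeq upstream regions on mouse build GRCm38.p6, from 90 to 31 bases before the annotated start, 5′ to 3′ on the gene's own strand, with the CRE letters TGACGTCA or the shorter core TGACG in capitals.
Chgb (chr2:132781552-132781611, plus strand): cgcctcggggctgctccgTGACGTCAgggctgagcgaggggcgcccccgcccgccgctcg
Scg2 (chr1:79440057-79440116, minus strand): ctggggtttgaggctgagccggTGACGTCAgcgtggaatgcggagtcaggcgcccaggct
Pcsk1 (chr13:75089767-75089826, plus strand): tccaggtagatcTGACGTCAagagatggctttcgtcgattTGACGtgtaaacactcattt
Chga (chr12:102554851-102554910, plus strand): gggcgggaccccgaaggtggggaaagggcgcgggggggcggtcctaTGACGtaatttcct
Npy (chr6:49822620-49822679, plus strand): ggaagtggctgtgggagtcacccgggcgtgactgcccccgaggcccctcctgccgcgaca

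Of the 10 genes, 8 were matched by symbol in the RefSeq promoter table, Pcsk2 included, and Penk and Cpe had no entry. In the 250 bases before the start, the full CRE was found in 3 of the 8, Chgb (positions -72 to -65), Scg2 (-68 to -61) and Pcsk1 (-78 to -71), and in 1.55% of the 32851 promoters of the table. The shorter core TGACG, searched on both strands and contained on each strand of the full CRE, was found in 7 of the 8 and in 17.8% of all promoters. Npy was the one without it. The clock-related E-box CACGTG was found in none of the 8 (6.02% of all promoters), nor was the D-box TTATGNAA (3.07%) or the AP-1 site TGANTCA (6.75%). These matches describe the letters in the window, and no binding was measured.

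Signals, on the linear scale deposited by the authors, were compared over 18 profiles, 3 for each circadian time. In 6 pairs of the 24 arrays the signals agreed within 5% at every probe set that reached 50 on both, which is closer than any other arrays came (the SD of their log2 ratios was at most 0.04, against 0.22 to 0.52 between other arrays of one circadian time), and each pair was averaged and counted as 1 sample. The arrays also fall into a first and a second array batch, told apart by a spiked control. The second batch holds all 6 profiles of CT10 and CT18 and nothing else, so a difference of CT10 or CT18 from the other times cannot be told apart from the batch. Some markers of other tissues also differed between the batches. The summed signal of 5 skeletal muscle markers ranged between 265 and 27226 in the second batch and between 257 and 342 in the first, and that of 4 liver markers between 1435 and 23577 in the second batch and between 191 and 2615 in the first. In the 24 h fit, the second minus the first batch was called for 47.9% of all probe sets, so such calls are common. It was 1.52 for the red cell gene Hba-a1 (limma, adjusted p = 2.25e-06) and 0.49 for the macrophage gene Csf1r (0.0001). For the endothelial genes Kdr and Pecam1 it was -0.57 and -0.90 (limma, adjusted p = 7.5e-07 and 0.00031). The other tested genes of these 3 cell types were not called by their brightest probe sets. These were Alas2 of red cells (0.03, limma, adjusted p = 0.91) and the endothelial Cdh5 (0.13, 0.32) and Tek (-0.14, 0.12). The macrophage genes were Adgre1 (0.04, limma, adjusted p = 0.69), Ptprc (0.05, 0.81) and Cd68 (0.28, 0.10). Of the muscle markers, Myh4, Tnnt3 and Mylpf were listed at 0 on at least 1 array. The chromaffin markers summed to between 18360 and 24618 in the second batch and between 16797 and 25821 in the first, with all 9 measured genes above 0. The sum hides shifts in both directions. By brightest probe set, second minus first batch was -0.86 for Pnmt (limma, adjusted p = 3.4e-05) and -0.29 for Th (0.033). It was 0.45 for Ddc (limma, adjusted p = 0.00067), 0.29 for Phox2a (0.022), 0.28 for Slc18a1 (0.0054) and 0.22 for Dbh (0.031). Slc18a2 (0.25, limma, adjusted p = 0.095), Gata3 (-0.41, 0.054) and Hand1 (0.07, 0.39) were not called. The part of other tissues in the results was not tested, except that the count for the 24 h rhythm was also made without the 4 profiles that had an Acta1 signal over 1000. Profile 78 h replicate 2, at CT18, had little 5′ relative to 3′ Gapdh signal, a ratio of 0.0386, against 0.846 to 1.13 in the other profiles.

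Of the 9 genes, 5 were among the brightest of the array. Chgb averaged a signal of 10634, above 99.9% of all probe sets, Chga 9709, Cpe 9019, Scg2 8822 and Npy 7187, which lies above 99.2% of probe sets. The highest signal of any probe set on an array lay between 13025 and 14316, so that Chgb, which reached 11790 on one array, sat near the top of the measured range. Whether the scale is compressed at the signals of these 5 genes was not tested. Scg5 averaged 1455, Penk 1519 and Scg3 1028, and Pcsk1 was the dimmest at 407, above 62.4% of probe sets. Cpe had a second, dim probe set with a mean signal of 308, of a type that the array maker marks for cross-hybridisation. Signals of different probe sets are not comparable as amounts of RNA.

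**Figure D1:**
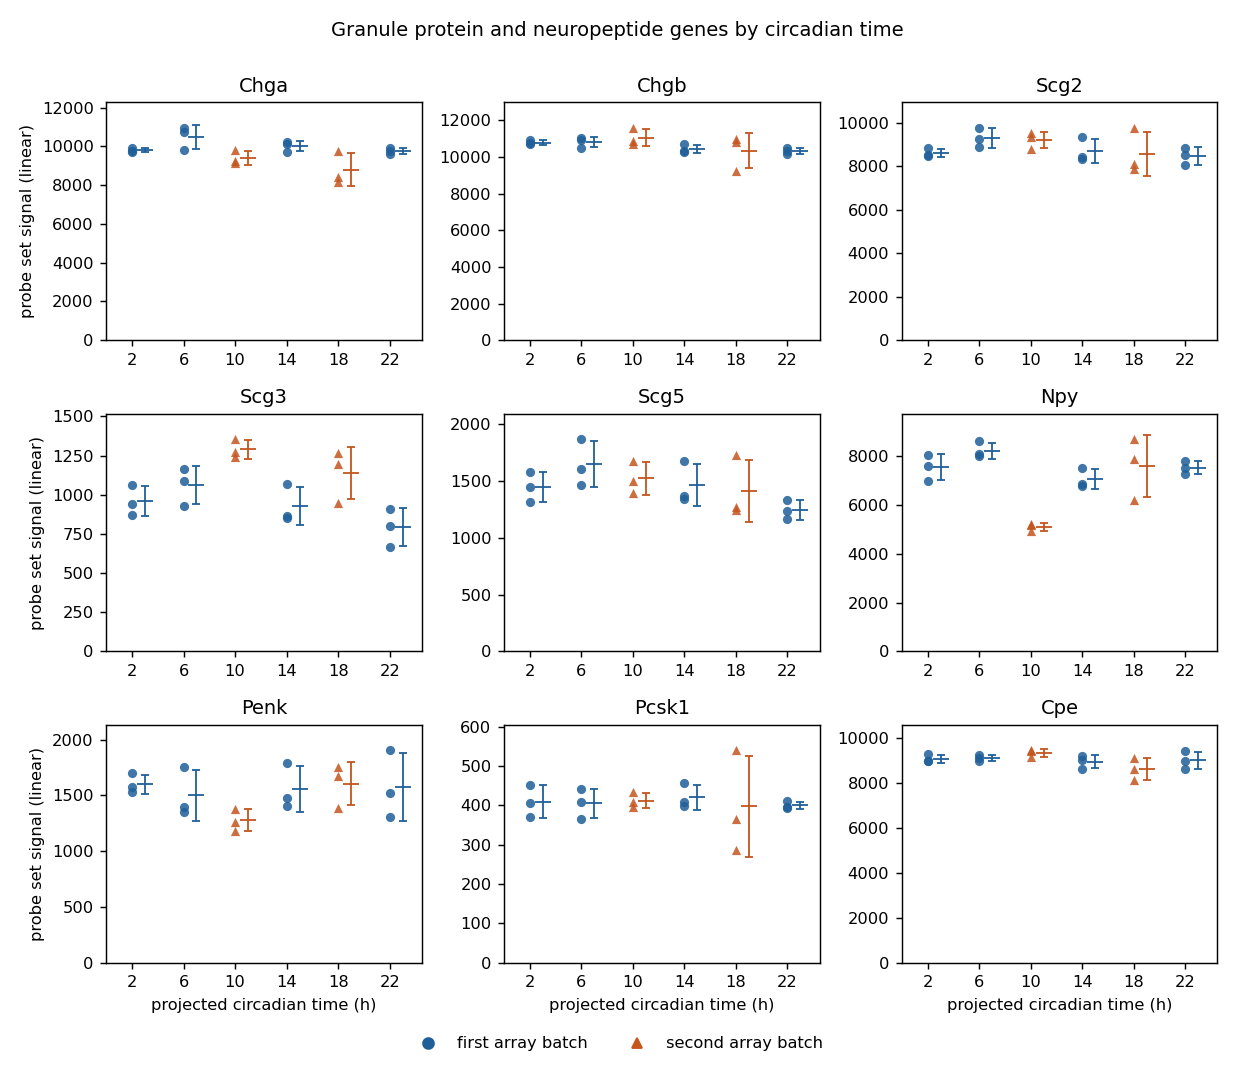
Signal (linear, axis from 0) of the brightest probe set of each of 9 granule genes in 18 profiles by projected circadian time (h); circles are the first and triangles the second array batch, with mean and SD (n = 3) to the right of the points. Npy lies at 4929.9 to 5247 at CT10 and at 6234 or above at every other time, while Chgb and Cpe stay within a narrow band.

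A 24 h cosine with the array batch as a block was called for 0 of the 10 member probe sets, while 16% of all 27022 probe sets tested were called (limma moderated F test, Benjamini-Hochberg adjusted p under 0.05 over all probe sets). At an unadjusted p under 0.05, 2 of the 10 passed, against 30.8% of all probe sets. All 10 had passed the filter on dim probe sets. The median amplitude, from the mean to the peak, was 0.06 on the log2 scale for the members and 0.10 over all probe sets. In the same fit the 6 clock genes Arntl, Nr1d1, Nr1d2, Dbp, Per2 and Cry1 were all called, and Dbp, a D-box factor and a direct output of the clock, had an amplitude of 2.17 ± 0.16 (SE, n = 18) with a peak at CT 9.51.

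The absence of a call holds for most settings but not all. Leaving out profile 54 h replicate 2 alone gave 4 calls, where 16% of all probe sets were called. These were Chga (limma, adjusted p = 0.0247), Scg2 (0.0229), Scg3 (0.0446) and Scg5 (0.0222), with amplitudes of 0.08, 0.10, 0.20 and 0.19. The profile left out had an Acta1 signal of 192. The CT18 profiles that remained had 8041 and 1760, and the second of these, 78 h replicate 2, had the Gapdh ratio of 0.0386. The part of these differences in the 4 calls was not tested. No call was made without any other profile, without the 4 profiles with a high Acta1 signal (11.9% of all probe sets called), without the batch term (10%) or in the first array batch alone (10.1%). Quantile normalisation gave 2 calls, Chga and Scg2 (16.7%), and adding the mean of the chromaffin markers Th, Ddc, Dbh and Pnmt as a covariate gave 5, Chga, Npy, Scg2, Scg3 and Scg5 (9.29%), though Ddc and Pnmt were themselves called rhythmic. Treating all 24 arrays as independent, which counts the near-copies as replicates, gave 5, Chga, Chgb, Scg2, Scg3 and Scg5 (31.7%).

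Among the granins, Scg3 had the largest fitted rhythm. Secretogranin III binds chromogranin A and cholesterol-rich membrane and helps sort granule cargo. Its signal was 871, 1062 and 943 at CT2, 1162, 1091 and 926 at CT6, 1242, 1355 and 1273 at CT10, 855, 1070.2 and 866 at CT14, 948, 1269.8 and 1199 at CT18, and 668, 803 and 908 at CT22. All 3 profiles of CT10 lay above all those of CT2, CT6, CT14 and CT22, the times of the first batch, and neighbouring times in the order of the means (CT10, CT18, CT6, CT2, CT14, CT22) overlapped. The fitted amplitude was 0.17 ± 0.05 on the log2 scale (SE, n = 18), a peak-to-trough ratio of 1.26 with an upper 95% limit of 1.47, and a peak at CT 7.77 (limma, adjusted p = 0.083). In the first batch alone it was 0.23 ± 0.07 with a peak at CT 7.84 (n = 12, limma, adjusted p = 0.11).

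Scg5, which encodes a chaperone of the Pcsk2 convertase, had its highest mean at CT6, 1645 ± 203, and its lowest at CT22, 1244 ± 86.3 (SD, n = 3 each). Its 3 profiles at CT6 had signals of 1865, 1604 and 1465, against 1163, 1235 and 1335 at CT22, and those groups did not overlap. The amplitude was 0.14 ± 0.05 with a peak at CT 8.26, a ratio of 1.22 with an upper limit of 1.43 (n = 18, limma, adjusted p = 0.15). In the first batch alone it was 0.22 ± 0.06 with a peak at CT 8.17 (n = 12, limma, adjusted p = 0.071). The ratio there was 1.36 with an upper limit of 1.63.

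Chga, the precursor of vasostatin, pancreastatin and catestatin, spanned 8171 to 10954. Its signals were 9760.1, 9714 and 9923 at CT2, 10727, 10954 and 9798 at CT6, 9228, 9162 and 9811 at CT10, 10105, 10223 and 9702 at CT14, 8171, 9768 and 8436 at CT18, and 9609, 9774 and 9892 at CT22. The lowest means were those of the second batch, CT18 and CT10, and the second batch was lower by a fitted coefficient of -0.15 on the log2 scale (limma, adjusted p = 0.0054). The fitted 24 h rhythm was small, with an amplitude of 0.06 ± 0.02, a peak at CT 8.44 and a ratio of 1.08 that stayed under 1.16 at its upper 95% limit (n = 18, limma, adjusted p = 0.18).

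Chgb, the second chromogranin, spanned 9239.6 to 11598 over the profiles, and its lowest and highest profiles both lay in the second batch, at CT18 and CT10. Scg2, whose product is cut to the peptide secretoneurin, spanned 7900.3 to 9773, from CT18 to CT6. Their amplitudes were 0.05 ± 0.02 with a peak at CT 6.49 and 0.07 ± 0.03 with a peak at CT 7.89 (n = 18, limma, adjusted p = 0.21 and 0.19). The upper 95% limits of their peak-to-trough ratios were 1.14 for Chgb and 1.19 for Scg2. In the same fit the ratio of Dbp was 20.2.

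No probe set of a processing enzyme passed the test, and bright Cpe had the tightest limit. Whether the scale is compressed at the mean signal of bright Cpe, 9019, was not tested. Cpe, which removes basic residues left by the convertases, spanned 8137 to 9449 in its bright probe set, with an amplitude of 0.04 ± 0.02 and an upper limit of 1.11 on its ratio (n = 18, limma, adjusted p = 0.30). Pcsk1, the convertase that makes the first cuts in many prohormones, spanned 287 to 539, and both extremes fell at CT18. Its 3 profiles there had signals of 287, 539 and 365, and those of CT22 had 409.9, 396 and 394. Its amplitude of 0.04 ± 0.06 had an upper limit of 1.25 on the ratio (n = 18, limma, adjusted p = 0.90). The dim Cpe probe set had an adjusted p of 0.92, also from limma.

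The fitted peaks of the 5 granins and of bright Cpe lay between CT 6.49 and CT 8.44, with SEs between 1.38 and 2.03 h. Those of Npy and Penk lay at CT 21.9 and CT 20.4, and those of Pcsk1 and the dim Cpe probe set at CT 10.8 and CT 13.6, with SEs of 6.22 and 5.73 h. None of these rhythms passed the test and the difference between the peaks was not tested.

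**Figure D2:**
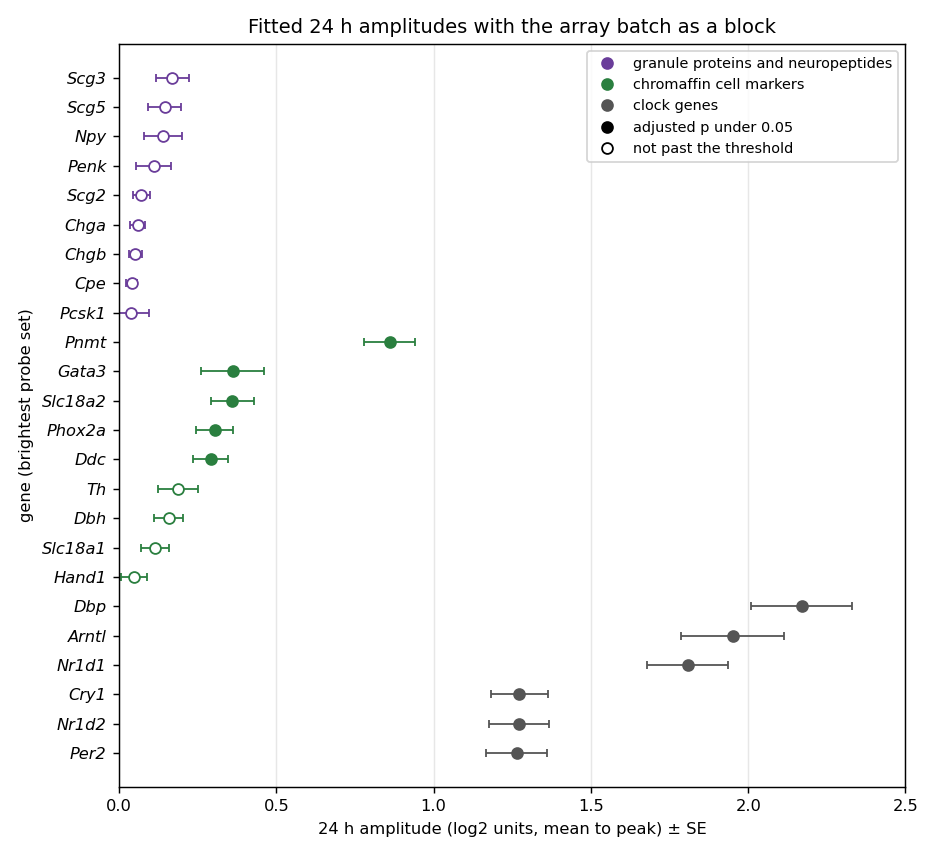
Fitted 24 h amplitude (log2, mean to peak) with its SE for 9 granule genes (top), 9 chromaffin cell markers (middle) and 6 clock genes (bottom), with the array batch as a block; filled points have an adjusted p under 0.05. All 9 granule genes lie at or under 0.17 and are open, 5 of 9 chromaffin markers are filled, and the 6 clock genes lie between 1.26 and 2.17.

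Npy encodes neuropeptide Y, a co-transmitter stored with catecholamines. It had signals of 6991, 8050.5 and 7617 at CT2, 8615, 8008 and 8104 at CT6, 4929.9, 5247 and 5176 at CT10, 6868, 7545 and 6797 at CT14, 6234, 8709 and 7884 at CT18, and 7512, 7272 and 7809.6 at CT22. The 3 profiles of CT10 lay below all 15 others. In the order of the means (CT6, CT2, CT18, CT22, CT14, CT10), only the step between CT14 and CT10 was free of overlap, with a difference of 0.46 on the log2 scale against a larger SD of 0.08, and this step lies between the batches. CT18, the other time of the second batch, averaged 7609 ± 1260.4, against 5118 ± 166 at CT10 (SD, n = 3 each), and lay above CT10 in each of its 3 profiles.

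Within the second array batch, CT18 minus CT10 of Npy was 0.55 ± 0.12 on the log2 scale (SE, n = 6, limma, adjusted p = 0.043). It was called for 1 of the 10 member probe sets, against 5.01% of all probe sets. Leaving out each profile in turn kept the difference between 0.45 and 0.69, but the call was lost without 46 h replicate 1 (limma, adjusted p = 0.20), 46 h replicate 2 (0.15), the averaged 70 h pair (0.15) or 78 h replicate 2 (0.060), the profile with the low Gapdh ratio. Without 54 h replicate 1 and 78 h replicate 1, the profile with the highest Acta1 signal (8041), the difference was 0.69 (limma, adjusted p = 0.026). Of the brightest probe sets of the other-tissue markers, that of the endothelial gene Pecam1 was lower at CT18 than at CT10, by a log2 difference of -1.07 ± 0.16 (limma, adjusted p = 0.016), and its signal ranged between 164 and 255 over the arrays of CT18 and between 464 and 550.3 over those of CT10. The other endothelial genes were not called, Kdr at 0.02, Tek at 0.16 and Cdh5 at -0.35 (limma, adjusted p = 0.92, 0.49 and 0.23). Nor were the liver genes Apoa1, Serpina1c and Ttr, at 2.62, 2.10 and 1.83 (limma, adjusted p = 0.16, 0.16 and 0.25). The liver gene Alb was not called either (1.75 ± 0.74, limma, adjusted p = 0.22). Its signal ranged between 771 and 8621 at CT18 and between 742 and 934 at CT10, and was 771 in 54 h replicate 2, the CT18 profile with the highest Npy. The part of these tissues in the Npy difference was not tested.

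Penk encodes the precursor of the enkephalins, opioid peptides of the medulla. It too was lowest at CT10, with signals of 1674, 1385 and 1758 at CT18 and of 1184, 1263 and 1382 at CT10, which did not overlap, though the highest profile of CT10 lay just under the lowest of CT18. CT18 minus CT10 was 0.32 ± 0.12 (SE, n = 6, limma, adjusted p = 0.18). The other 8 probe sets had differences between -0.18 and -0.02, with limma adjusted p between 0.28 and 0.97. The 24 h amplitudes of Npy and Penk were 0.14 ± 0.06 and 0.11 ± 0.06, with upper limits of 1.45 and 1.37 on the ratio (n = 18, limma, adjusted p = 0.25 and 0.36). With a 12 h term beside the 24 h term, that of Npy was 0.13 ± 0.04 (limma, adjusted p = 0.0499), the 1 call among the 10, against 19.7% of all probe sets. In the first batch alone, which lacks CT10, the amplitude of Npy was 0.10 ± 0.03 with a peak at CT 5.23, against CT 21.9 in the fit over both batches (n = 12, limma, adjusted p = 0.15).

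Levels over the 6 circadian times with no batch term differed for 3 of the 10 probe sets, Npy (limma, adjusted p = 0.000157), Scg3 (0.0050) and Chga (0.017), where 53.5% of all probe sets were called. Without 54 h replicate 1 and 78 h replicate 1, or without 78 h replicate 2, the call of Chga was lost, and without 54 h replicate 2 calls of Scg2 and Scg5 were added. Among the 4 times of the first batch, 0 of 10 were called (8.44% of all probe sets), and 3 had an unadjusted p under 0.05, Npy, Scg5 and Scg3 (limma, adjusted p = 0.11, 0.14 and 0.19). In the 24 h fit, the second minus the first batch was called for 2 of the 10, Scg3 at 0.37 ± 0.09 and Chga at -0.15 ± 0.04 (SE, n = 18), against 47.9% of all probe sets. The coefficient of Npy was -0.24 ± 0.10 (limma, adjusted p = 0.066).

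The catecholamine enzymes of the same cells gave a comparison for Npy. Th, the rate-limiting enzyme of catecholamine synthesis, had signals of 4691, 6275 and 6205 at CT18 and of 3564, 3927 and 4221 at CT10, a difference of 0.54 ± 0.13 (SE, n = 6, limma, adjusted p = 0.055). Pnmt, which converts noradrenaline to adrenaline, differed by 0.98 ± 0.22 in its brighter probe set and by 0.58 ± 0.13 in the other (limma, adjusted p = 0.051 and 0.053). Dbh, which makes noradrenaline within the granule, had differences of -0.21, -0.01 and 0.12 over its 3 probe sets. Phox2a, a transcription factor of noradrenergic cells, was lower at CT18 than at CT10 by a log2 difference of -0.73 (limma, adjusted p = 0.035), and the vesicular monoamine transporter Slc18a2 differed by -0.73 (0.082). Ddc, the decarboxylase that makes dopamine, differed by -0.30 ± 0.11 (limma, adjusted p = 0.17). The lowest time mean was that of CT10 for Npy, Penk, Th and the brighter Pnmt probe set, but the other Pnmt probe set was lowest at CT2 (10.66 on the log2 scale, against 11.20 at CT10). Ddc and bright Dbh had their highest time means at CT10, and none of the 5 granins had its lowest there. Another Dbh probe set was highest at CT18 (12.15 on the log2 scale, against 12.03 at CT10). These orders run across the batches, and second minus first batch was 0.22, 0.70 and 0.45 for the 3 Dbh probe sets (limma, adjusted p = 0.031, 3.2e-05 and 0.0021).

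**Figure D3:**
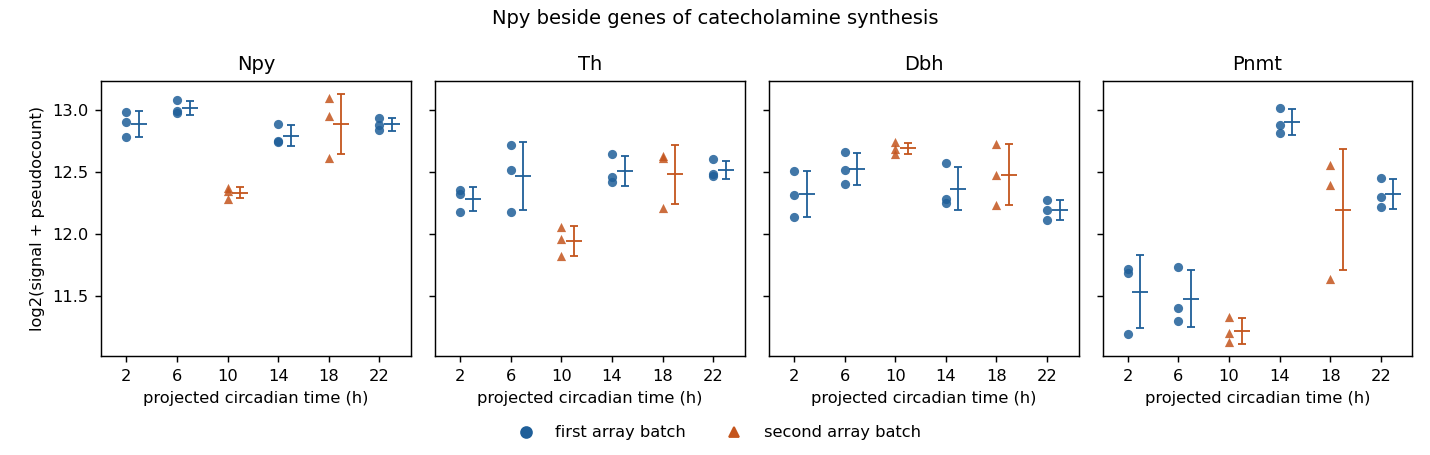
Log2 level of Npy, Th, Dbh and Pnmt (brightest probe set) in 18 profiles by projected circadian time (h), on a shared axis, with mean and SD (n = 3) beside the points; circles are the first and triangles the second array batch. Npy and Th are lowest at CT10 and Pnmt is highest at CT14, while Dbh is highest at CT10.

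Several markers of the same cells were called rhythmic in that 24 h fit, 5 of 9 genes by their brightest probe sets, where 16% of all probe sets were called. The count was 4 without the batch term (10%) and 2 in the first batch alone (10.1%). Pnmt had amplitudes of 0.75 ± 0.05 and 0.86 ± 0.08 in its probe sets, with peaks at CT 15.9 and CT 16.5 (limma, adjusted p = 5.51e-07 and 1.21e-05). Ddc had 0.29 ± 0.06 with a peak at CT 5.81 (0.0051), and Slc18a2 had 0.36 ± 0.07 with a peak at CT 7.85 (0.0053). No test compared the amplitudes of the granule genes with those of the markers. Of the other cell types, 3 of 9 adrenal cortex genes were called by their brightest probe sets, Mc2r (amplitude 0.22), Nr5a1 (0.29) and Fdx1 (0.07). Star was called by another probe set (0.08, limma, adjusted p = 0.014) and not by its brightest (0.08, 0.060). The cortex count was 1 without the batch term (10% of all probe sets) and 1 in the first batch alone (10.1%). Of the fat genes 1 of 3 was called, Lep (0.97). No muscle, liver, red cell, Schwann cell, endothelial, macrophage or neuron marker was called by its brightest probe set in that fit, and 2 of 3 neuron markers were called in the first batch alone.

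Among the 3 profiles of a circadian time, the granule genes and the chromaffin markers deviated in the same direction. For each profile, the mean log2 level of the 9 genes was set against its mean at that time, and so was the mean of Th, Ddc, Dbh and Pnmt. Both deviations had the same sign in 18 of 18 profiles. Deviations from a mean of 3 profiles depend on each other, so these are not 18 independent agreements. Some were small, such as 0.0006 for the granule genes in the averaged pair 58 h replicate 2 and 82 h replicate 2. No other gene set was compared in this way. The widest spread was at CT18, where 54 h replicate 2 lay 0.15 above the mean of its time, with 8 of 9 genes above it, and the averaged pair 54 h replicate 1 and 78 h replicate 1 lay at -0.15. The mean log2 level of the 4 markers was 12.25 in 54 h replicate 2, against 11.92 in that pair and 11.99 in 78 h replicate 2. The Acta1 signals of these 3 profiles were 192, 8041 and 1760. At CT10 the averaged 70 h pair had the highest Acta1 signal, 4365, and also the highest marker mean, 11.8445. There 46 h replicate 2 had an Acta1 signal of 32 and a marker mean of 11.8384. At CT6, 42 h replicate 1 lay 0.09 above and 66 h replicate 2 at -0.09. The profile with the highest marker mean was also the highest for Scg2 at 6 of 6 times, for Chga and Chgb at 5, for Npy, Scg3 and Scg5 at 4, for Penk and Pcsk1 at 3 and for bright Cpe at 1. The range of log2 values within a time was widest at CT18 for Chga, Chgb, Scg2, Scg5, Npy, Pcsk1 and both Cpe probe sets, and at CT22 for Penk and Scg3.

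**Figure D4:**
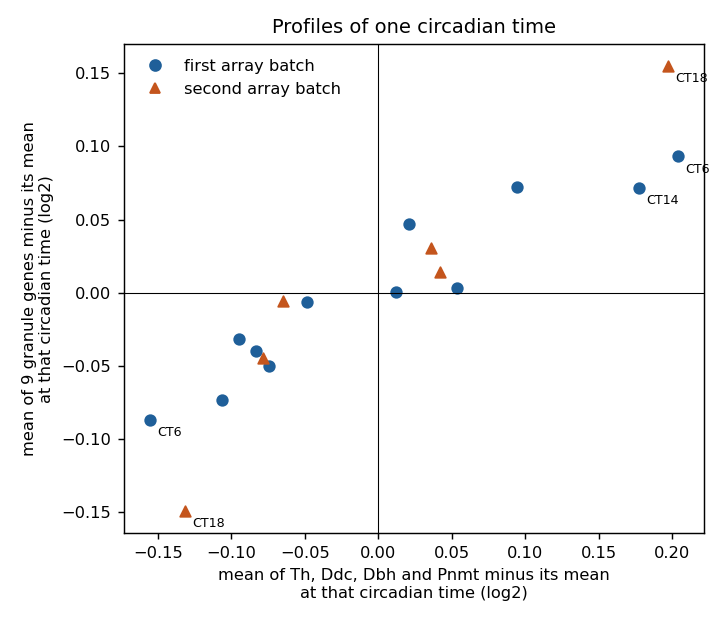
Mean log2 level of 9 granule genes in each profile minus its mean at that circadian time, against the same deviation for the chromaffin markers Th, Ddc, Dbh and Pnmt, in 18 profiles (circles first, triangles second array batch). All 18 points lie where both deviations have the same sign, from -0.15 to 0.15 for the granule genes.

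For the second against the first circadian cycle, 0 of 10 member probe sets were called among 13 profiles labelled as 1 cycle, 6 of the second and 7 of the first. Of the 6 near-copy pairs, 5 join arrays labelled as different cycles and were left out here. Whether the cycle labels of the 13 profiles hold was not tested. In limma 0% of all probe sets were called too, and 2176 of 27022 had an unadjusted p under 0.05, among them 0 of the 10. Differences of the second minus the first cycle ran between -0.17 for the dim Cpe probe set and 0.16 for Penk. A change of rhythm between cycles was called for 0 of 10 and 0 of 27022 probe sets, with 1 member, Penk, at an unadjusted p under 0.05 (limma, adjusted p = 0.89).

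Other cargo, processing enzymes, neuropeptides and exocytosis proteins, a list of 33 genes of which 27 were tested, gave 5 genes called rhythmic by their brightest probe sets, where 16% of all probe sets were called, and 3 in the first batch alone (10.1%). Adm, the precursor of the vasodilator peptide adrenomedullin, had amplitudes of 0.48 ± 0.08 and 0.43 ± 0.08 in its probe sets, with peaks at CT 4.75 and CT 5.17 (limma, adjusted p = 0.0013 and 0.0035). Vamp2, the vesicle SNARE of exocytosis, had 0.16 ± 0.03 with a peak at CT 8.11 (0.011), and Syt1, a calcium sensor of exocytosis, had 0.15 ± 0.03 with a peak at CT 9.82 (0.015). The median amplitude of the list was 0.12, against 0.10 over all probe sets.

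Genes whose level followed the mean of the standardised granule genes most closely were sought over the 12 profiles of the first array batch, among 13859 genes. These were Gng4 (Pearson r = 0.95), Slc26a4 (0.95), Gprasp2 (0.94), Gata2 (0.94), 6330403K07Rik (0.94) and Rab27a (0.94). The 9 chromaffin markers were spread widely, from Slc18a1 (r = 0.93, rank 11) and Ddc (0.91, rank 14) through Dbh (0.84, rank 44) and Th (0.46, rank 1616) to Pnmt (-0.36, rank 12144). Genes of one profile share its gland, array and batch, and the correlations are descriptions without a test.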

How the data were processed

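Total RNA of 24 whole adrenal samples was biotin-labelled and hybridised to Affymetrix mouse arrays, per the labels' protocols. The values are the linear intensity values that the authors deposited; their summary and scaling are not given in the sources used here. Gene symbols came from the platform annotation. Members, lists and tests were chosen with earlier results of these data known.

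Values were analysed as log2(intensity + 51.0), the pseudocount being the 10th percentile, which shrinks fold changes of dim genes. The table holds 45101 probe sets, 64 of them controls, and those with a mean signal under the 40th percentile (188.2) were left out, leaving 27022. Near-copies were averaged, and array batches were set by a ThrX-3 control signal above or below 300. Tests used limma 3.58.1 in R 4.3.3 with an intensity trend and Benjamini-Hochberg adjustment over all probe sets tested: a 24 h cosine and sine with the batch as a block, an F test over 6 circadian times, CT18 minus CT10 within the second batch, and second minus first cycle with circadian time as a factor. Upper limits of ratios are 95% limits of the amplitude. Scripts were tested on simulated data. All member probe sets are named. The rule for background lists named up to 4 probe sets each with the lowest p for the 24 h rhythm, and genes whose values bear on a member's result. For other cell types the text names those called, and examples that differed between batches, chosen after their values were seen. Other genes of the same lists are given beside the red cell, endothelial and macrophage examples. The 6 genes most like the members in pattern are named too. Precision is limited by the number of arrays.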

Additional observations from a re-analysis of the deposited data

How the results depend on the processing

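For the 24 h rhythm, the main count of 0 of 10 member probe sets (16% of all probe sets called) became 5 with all 24 columns as independent samples (31.7%), 5 with a replicate block over all 24 columns (32.3%), 2 with quantile normalisation (16.7%), 5 with the chromaffin marker covariate (9.29%) and 1 with 24 h and 12 h terms (19.7%). Without each profile in turn it ranged between 0 and 4, and the 4 calls came without 54 h replicate 2. It stayed at 0 with other pseudocounts, no filter, 1 probe set per gene, no batch term, the first batch alone, or without the profile of low Gapdh ratio or those with an Acta1 signal over 1000. Same-numbered arrays deviated together (r over 0.1) in 17 of 66 pairs of time points and oppositely (r under -0.1) in 10. The values of r ran from -0.51 to 0.50, and the near-copies are part of this count. Apart from the replicate block, the replicate numbers were used only to name samples. The count of 3 over the 6 circadian times was 0 among the 4 times of the first batch and 1 for CT18 minus CT10. Settings added after seeing the data gave 5 with quantile normalisation (54.4% of all probe sets called), 6 with all 24 columns (74.6%), and between 2 and 5 without each profile in turn (46.0% to 56.8%). CT18 minus CT10 of Npy was 0.55 without the filter (limma, adjusted p = 0.079) and between 0.45 and 0.69 without each profile in turn. The count of 0 between cycles did not change under any setting run. Causes were not tested. With 3 profiles a time, these results are limited by the nesting of CT10 and CT18 in the second batch. The muscle, liver and RNA quality differences of that batch, and those of some red cell, endothelial and macrophage genes, limit them too.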

Other observations

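Among the exocytosis and cargo genes, 8 of the 42 probe sets tested were called rhythmic, where 16% of all probe sets were called. Snap25 and Cyb561, called by their brightest probe sets, are named here after their values were seen. Called probe sets beyond these and those named above are not named. Snap25, a membrane SNARE of exocytosis, had an amplitude of 0.28 ± 0.07 on the log2 scale (SE, n = 18) with a peak at CT 9.29 (limma, adjusted p = 0.023). Cyb561, the granule membrane cytochrome that supplies electrons for Dbh, had 0.13 ± 0.04 with a peak at CT 9.69 (0.0497). Other granule membrane and dense-core vesicle proteins on the list, not all named here, were not called by their brightest probe sets. Ptprn had 0.14 ± 0.05 with a peak at CT 9.83 (limma, adjusted p = 0.15) and Resp18 had 0.14 ± 0.05 with a peak at CT 8.81 (0.15). Amplitudes were 0.07 for Ptprn2 (limma, adjusted p = 0.33), 0.06 for Pam (0.49) and 0.03 for Nucb2 (0.91). Fitted peaks lay at CT 13.3 for Vgf (amplitude 0.16, limma, adjusted p = 0.58), CT 17.2 for Pcsk1n (0.13, 0.66) and CT 15.5 for Cadps2 (0.09, 0.24).
Pcsk1n, which encodes an inhibitor of the Pcsk1 convertase, differed between CT18 and CT10 by 0.74 ± 0.16 within the second batch (SE, n = 6, limma, adjusted p = 0.043), and was also picked out after its values were seen.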
